A study of Mus musculus with 16 samples.

Results

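Expression of 10 genes that p53 is known to switch on was followed in the forebrain of mice with a deletion of Trrap: Ptprv, Cdkn1a, Ccng1, Mdm2, Trp53inp1, Bax, Bbc3, Phlda3, Eda2r and Sesn2. All 10 were found by symbol among the 53801 gene identifiers of the count table. Ptprv was chosen because it is among the genes with the largest rises in these same libraries, so its own rise is given as a description, with no test. The other 9 were chosen by name, and the question was whether they rose with it.

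RNA of cortex and striatum was sequenced from 9 mice aged 10 days on a mixed C57BL6/J-129sv strain, in 16 libraries. Controls had 1 floxed and 1 wild-type copy of Trrap (Trrap Fl/+), the mice labelled Trrap-FBΔ had floxed copies only (Trrap Fl/Fl), and every mouse of both groups carried the Camk2-Cre transgene. Each tissue gave 4 control and 4 Trrap-FBΔ libraries, 7 of the 9 mice gave both tissues, and 28743866 to 48761429 reads were counted per library. Each Trrap-FBΔ group held 3 females and 1 male, against 2 of each sex in control cortex and 1 female and 3 males in control striatum. The Camk2 promoter drives Cre in forebrain neurons, so glia, vessels and microglia in the dissected tissue would keep Trrap, and the libraries hold the RNA of all these cells.

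Trrap is the large scaffold subunit shared by several histone acetyltransferase complexes, and it was first met as a partner of transcription factors such as Myc. The factor p53 is held low in unstressed cells by Mdm2 and Mdm4, and after DNA damage or other stress it accumulates and activates genes for cell cycle arrest, apoptosis, DNA repair and metabolism, along with Mdm2 itself. Through p21, the product of Cdkn1a, it also represses many genes of cell division by way of the DREAM complex.

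Counts over the whole Trrap gene did not separate the groups. They lay between 136 and 173 normalised counts scaled to library size (CPM) in control cortex and between 121 and 146 in Trrap-FBΔ cortex (log2 fold change -0.18, adjusted p = 0.083), and between 140 and 151 against 135 and 148 in striatum (log2 fold change -0.04, adjusted p = 0.52). The cortical difference passed the threshold without control mouse 63 (log2 fold change -0.23, adjusted p = 0.034), without the filter on low counts (adjusted p = 0.046) and with all 16 libraries in one fit (adjusted p = 0.047). All directions of change below therefore follow the labels of the libraries. The tissue labels were checked in controls. Of 7 excitatory neuron markers, 6 were lower in striatum than in cortex and 1 was higher, with a log2 difference of 2.11. Of all genes tested, 20.1% were lower and 20.3% higher in striatum. Only 1 of 8 markers of striatal projection neurons was higher in control striatum, and their summed level overlapped, at 254 to 695 CPM in control cortex and 217 to 1117 CPM in control striatum.

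Unless stated otherwise, levels are CPM after TMM scaling over all 16 libraries. Fold changes are Trrap-FBΔ over control within a tissue, and adjusted p-values are those of the quasi-likelihood test of edgeR with Benjamini-Hochberg adjustment over all genes tested. A gene rose or fell where this value was under 0.05.

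To show what p53 can read at these genes, the RefSeq promoters (GRCm38.p6, 250 bases before to 50 bases after each start) were searched for the p53 response element, which consists of 2 half-sites of 10 bases. Half-sites had to be adjacent with at most 3 mismatches to the consensus, or up to 13 bases apart with at most 2 mismatches. This limit was chosen after matches had been seen. The table held 11 promoters of 8 of the genes, all but Ptprv and Trp53inp1. A match was found for 4 of the 8 genes. Counted by promoter, and for each kind of match by itself, 1.38% of all 32851 promoters held an adjacent match and 4.09% a spaced one, and nothing is read from the count of 4 against these shares. The 4 matches are given 5′ to 3′ on the strand of the gene, with the core of each half-site in capitals.
Cdkn1a, chr17:29090928-29090947: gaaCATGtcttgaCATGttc
Ccng1, chr11:40755462-40755481: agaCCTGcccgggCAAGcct
Bbc3, chr7:16309486-16309505: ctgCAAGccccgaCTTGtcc
Bax, chr7:45467079-45467099: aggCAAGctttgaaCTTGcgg
The Cdkn1a element began 51 bases before the upstream of 2 RefSeq starts, which lie 2790 bases apart, and the Ccng1 element 195 bases before its start; each had 1 mismatch. The Bbc3 element had 3 mismatches and began 97 bases before a start. The Bax element had 2 mismatches and a spacer of 1 base, 201 bases before its start. The element has the same letters on both strands, so each match counts once. No match says only that these letters are not in this window, and the promoters of Mdm2, Sesn2, Phlda3 and Eda2r had none.

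The genes differed widely in level. Per kilobase of exon, in control cortex, Ccng1 was highest at 27.0 ± 1.25 CPM per kb (SD, n = 4 here and below), followed by Bax at 19.0 ± 0.23, Mdm2 at 8.99 ± 0.17 and Cdkn1a at 7.16 ± 0.89. Phlda3 at 6.88 ± 0.30 did not differ from Cdkn1a by more than this spread, and Bbc3 was at 5.76 ± 0.41. Sesn2 at 3.53 ± 0.20 and Trp53inp1 at 3.42 ± 0.18 also lay within each other's spread. Ptprv, at 0.189 ± 0.0714, and Eda2r, at 0.0893 ± 0.0154 CPM per kb, were the lowest.

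**Figure D1:**
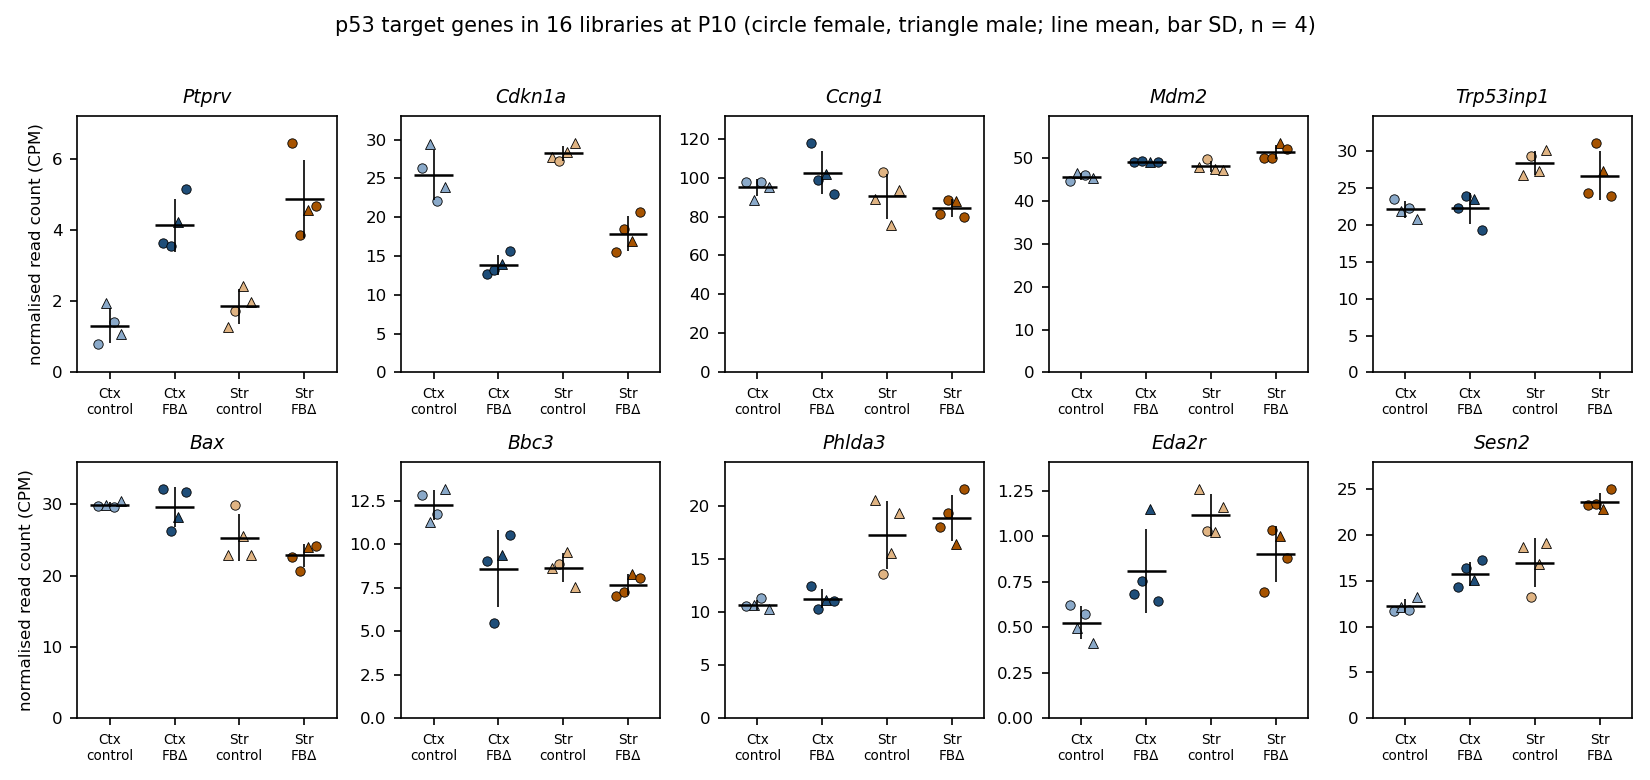
Normalised read count (CPM, linear axes from 0) of the 10 p53 target genes in each of the 16 libraries, by tissue (Ctx, Str) and genotype, with circles for females, triangles for males, lines for means and bars for the SD (n = 4). Ptprv, Sesn2 and Mdm2 were higher and Cdkn1a was lower in every Trrap-FBΔ library than in every control library of the same tissue. The difference of Mdm2 did not pass the test in either tissue.

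Ptprv (ENSMUSG00000097993) is known as the gene of a receptor-type tyrosine phosphatase linked to p53-dependent cell cycle exit, though it is not annotated as protein-coding. It lies on the minus strand of chromosome 1 (chr1:135108497-135132594, GRCm38), and its biotype is processed transcript in GENCODE and transcribed pseudogene in RefSeq. In cortex, control mice 55, 58, 63 and 64 had 0.804, 1.96, 1.43 and 1.09 CPM, while Trrap-FBΔ mice 57, 59, 60 and 61 had 3.63, 3.55, 4.23 and 5.15 CPM. In striatum, control mice 58, 63, 64 and 65 had 1.29, 1.72, 2.45 and 1.98 CPM, while Trrap-FBΔ mice 57, 59, 60 and 61 had 6.45, 3.86, 4.56 and 4.68 CPM. The groups did not overlap in either tissue. These levels rest on 22 to 93 reads per control and 127 to 297 per Trrap-FBΔ library. The log2 fold change was 1.62 (SE 0.22), or 3.07-fold, in cortex and 1.39 (SE 0.20), or 2.62-fold, in striatum. With 1 library left out it stayed between 1.47 and 1.88 in cortex and between 1.23 and 1.54 in striatum. The antisense gene Gm10535, which overlaps Ptprv, had at most 1 read in any library.

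Among the other 9 genes, Sesn2 rose and Cdkn1a fell in both tissues, and Bbc3 fell in cortex. Thus 1 of 9 rose and 2 of 9 fell in cortex, where 15.7% of all 18268 genes tested rose, 17.6% fell and 33.3% changed in either direction. In striatum 1 of 9 rose and 1 of 9 fell, against 14.4%, 15.8% and 30.2% of 18872 genes. Their median log2 fold change was 0.07 in cortex and -0.10 in striatum, around medians near 0 over all genes. The groups did not overlap for 5 of the 9 in cortex and 3 of the 9 in striatum, against 32.7% and 31.6% of all genes. The share of the 9 called by the test was near, or below, that of the whole table. The share without overlap was above that of the table in cortex and near it in striatum. With 9 genes, nothing is read from these counts.

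**Figure D2:**
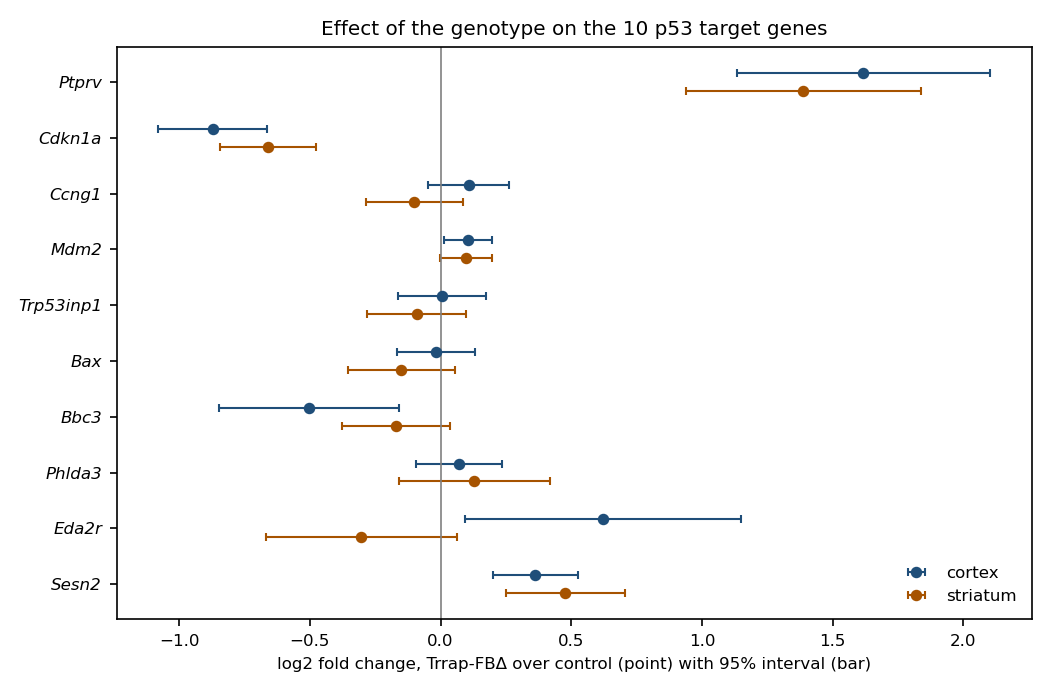
Log2 fold change of Trrap-FBΔ over control (points) with 95% intervals (bars) for the 10 genes in cortex and striatum. Ptprv stands to the right at 1.62 and 1.39, Cdkn1a to the left at -0.87 and -0.66, and the intervals of Ccng1, Trp53inp1, Bax and Phlda3 include 0 in both tissues.

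Cdkn1a encodes p21, an inhibitor of cyclin-dependent kinases and the best known p53 target for arrest. In cortex, control mice 55, 58, 63 and 64 had 26.3, 29.4, 22.1 and 23.9 CPM, while Trrap-FBΔ mice 57, 59, 60 and 61 had 12.7, 13.2, 14.0 and 15.6 CPM. In striatum, control mice 58, 63, 64 and 65 had 27.8, 27.3, 28.4 and 29.5 CPM, while the same Trrap-FBΔ mice had 15.5, 18.5, 16.9 and 20.7 CPM. Every Trrap-FBΔ library was below every control library, the opposite of Ptprv. The log2 fold change was -0.87 (SE 0.095, adjusted p = 8.8e-05) in cortex and -0.66 (SE 0.083, adjusted p = 0.00049) in striatum, to 0.546 and 0.633 of the control level. This call held in all 15 alternatives run in each tissue. In whole tissue, fewer cells of a type and less RNA per cell cannot be told apart, and the markers of several dividing or non-neuronal cells were lower in the same libraries. Microglial markers fell in cortex for 6 of 6 genes (summed level 256 to 289 CPM in controls, 182 to 231 in Trrap-FBΔ) and in striatum for 5 of 6 (205 to 250 against 163 to 179). Those of oligodendrocyte precursors fell for 5 of 5 genes in cortex (366 to 400 against 284 to 316 CPM) and 3 of 5 in striatum (495 to 613 against 388 to 466). Endothelial markers fell for 5 of 5 in cortex (263 to 304 against 213 to 229 CPM) and 2 of 5 in striatum (206 to 270 against 180 to 218). Oligodendrocyte markers fell for 6 of 6 in cortex (1763 to 3121 against 1294 to 2000 CPM). In striatum none of the 6 passed (3146 to 9336 against 3925 to 6883 CPM), with all 6 log2 fold changes below 0 (-0.26 to -0.068). Excitatory neuron markers fell for 2 of 7 in cortex (3408 to 4169 against 3702 to 3820 CPM) and 5 of 7 in striatum (1336 to 1937 against 951 to 1288 CPM). Of 6 astrocyte markers, 2 rose in each tissue, and 2 fell in cortex and 1 in striatum. Of all genes, 17.6% fell in cortex and 15.8% in striatum. No gene of these lists was at 0 in all libraries of a group. The part of these cells in the fall of Cdkn1a was not tested.

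Ccng1, the third gene of the arrest group, encodes cyclin G1, which recruits a phosphatase to Mdm2. It was the most abundant of the 10, at 97.9, 88.7, 98.0 and 95.2 CPM in control cortex and 118, 98.6, 102 and 91.5 CPM in Trrap-FBΔ cortex. In striatum it lay between 75.7 and 103 CPM in controls and between 79.6 and 88.6 CPM in Trrap-FBΔ. The groups overlapped in both tissues. With log2 fold changes of 0.11 (95% interval -0.046 to 0.26, adjusted p = 0.26) and -0.10 (-0.29 to 0.086, adjusted p = 0.40), a rise of the size seen for Ptprv lay outside its intervals.

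Mdm2 encodes the ubiquitin ligase that degrades p53 and is itself induced by it. In cortex, control mice 55, 58, 63 and 64 had 44.6, 46.6, 46.2 and 45.4 CPM, against values between 49.1 and 49.3 CPM in the 4 Trrap-FBΔ mice. The striatal values were 47.9, 49.8, 47.4 and 47.2 CPM in controls and 50.003, 50.031, 53.5 and 52.1 CPM in Trrap-FBΔ. All Trrap-FBΔ libraries were above all controls in both tissues, yet neither difference passed the test: the log2 fold change was 0.10 (95% interval 0.013 to 0.20, adjusted p = 0.076) in cortex and 0.10 (-0.0023 to 0.20, adjusted p = 0.13) in striatum. In cortex the test was passed with upper-quartile normalisation (adjusted p = 0.041) and with all 16 libraries in one fit (adjusted p = 0.042). Trp53inp1, which encodes a nuclear protein that promotes p53 activity and autophagy, was at 20.8 to 23.6 CPM in control and 19.3 to 23.9 CPM in Trrap-FBΔ cortex, and at 26.7 to 30.1 and 24.0 to 31.1 CPM in striatum. Its log2 fold changes were 0.0067 (95% interval -0.16 to 0.18) and -0.09 (-0.28 to 0.098), with overlapping groups.

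Of the 4 genes linked to apoptosis, none rose by the test and 1 fell. Bbc3, which encodes the BH3-only protein Puma, was at 12.8, 11.3, 11.7 and 13.2 CPM in control cortex and 9.04, 5.44, 9.35 and 10.5 CPM in Trrap-FBΔ cortex, the lowest being mouse 59. The groups did not overlap and the log2 fold change was -0.50 (SE 0.16, adjusted p = 0.028). The call was lost without control mouse 55 (adjusted p = 0.055, log2 fold change -0.48) or 64 (adjusted p = 0.069, -0.47). In striatum the groups overlapped, at 7.52 to 9.55 CPM in controls and 7.04 to 8.28 CPM in Trrap-FBΔ (log2 fold change -0.17, 95% interval -0.38 to 0.036, adjusted p = 0.19).

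Bax, the pore-forming protein of the mitochondrial outer membrane, was at 29.7 to 30.5 CPM in control cortex and spread wider, from 26.3 to 32.1 CPM, in Trrap-FBΔ cortex. The log2 fold change was -0.016 (95% interval -0.16 to 0.13), with a sign that turned under upper-quartile normalisation (0.0018). In striatum Bax was at 23.0 to 29.9 CPM in controls and 20.6 to 24.2 CPM in Trrap-FBΔ (log2 fold change -0.15, -0.35 to 0.054, adjusted p = 0.24). Phlda3, a pleckstrin homology domain protein that opposes Akt, was at 10.3 to 11.4 and 10.3 to 12.5 CPM in control and Trrap-FBΔ cortex and at 13.7 to 20.6 and 16.5 to 21.6 CPM in striatum. Its log2 fold changes were 0.07 (-0.092 to 0.23) and 0.13 (-0.16 to 0.42), with overlapping groups, although it lies on the same chromosome as Ptprv, 633525 bases away. Gm45808, which overlaps Bax on the same strand, had no read in any library.

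Eda2r, a member of the TNF receptor family on the X chromosome, had the fewest reads, 16 to 51 per library. In cortex, control mice 55, 58, 63 and 64 had 0.622, 0.497, 0.571 and 0.414 CPM, while Trrap-FBΔ mice 57, 59, 60 and 61 had 0.684, 0.754, 1.15 and 0.646 CPM. All 4 Trrap-FBΔ libraries were higher, and the log2 fold change of 0.62 (95% interval 0.094 to 1.15) had an adjusted p of 0.067, or 0.034 with all 16 libraries in one fit. The striatal values were 1.26, 1.03, 1.03 and 1.16 CPM in controls and 0.695, 1.03, 1.005 and 0.882 CPM in Trrap-FBΔ, with overlapping groups and a log2 fold change of -0.30 (-0.67 to 0.061, adjusted p = 0.19).

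Sesn2, or sestrin 2, restrains mTORC1 when leucine is short and is induced by p53 and by the stress factor Atf4. In cortex, control mice 55, 58, 63 and 64 had 11.7, 12.2, 11.9 and 13.3 CPM, while Trrap-FBΔ mice 57, 59, 60 and 61 had 14.4, 16.4, 15.1 and 17.3 CPM. In striatum, control mice 58, 63, 64 and 65 had 18.7, 13.3, 16.9 and 19.2 CPM, while the same Trrap-FBΔ mice had 23.3, 23.4, 22.8 and 25.0 CPM. The groups did not overlap in either tissue, as with Ptprv. The log2 fold change was 0.36 (SE 0.074, adjusted p = 0.0034) in cortex and 0.48 (SE 0.10, adjusted p = 0.0066) in striatum, or 1.29-fold and 1.39-fold, and the call held in all 15 alternatives run in each tissue. The transcript Gm12981, inside Sesn2 on the same strand, had at most 7 reads.

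A tissue-by-genotype interaction, fitted to the 16 libraries together, asked if the response was the same in cortex and striatum, and 0.437% of 19438 genes passed it. None of the other 9 genes passed in edgeR or in DESeq2, and 1, Eda2r, had an unadjusted p under 0.05. Its log2 fold change in striatum minus that in cortex was -0.93 (95% interval -1.52 to -0.33, adjusted p = 0.16). For Cdkn1a the difference was 0.21 (-0.069 to 0.49, adjusted p = 0.57) and for Sesn2 0.11 (-0.16 to 0.39, adjusted p = 0.79). For Ptprv the 2 effects differed by -0.23, with no test, and by -0.61 to 0.026 with 1 mouse left out, the lowest being without mouse 58.

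Between the tissues of control mice, a contrast that played no part in choosing the genes, 6 of the 10 differed, against 40.4% of 18284 genes. Of these, 4 were higher in striatum and 2 lower, where 20.3% and 20.1% of all genes were. The groups did not overlap for 6 of the 9 genes other than Ptprv, against 38.7% of all genes. Eda2r was higher in striatum, with a log2 difference of 1.10 (SE 0.18, adjusted p = 0.00084), as were Phlda3 at 0.69 (SE 0.12, adjusted p = 0.0014), Sesn2 at 0.47 (SE 0.11, adjusted p = 0.0069) and Trp53inp1 at 0.36 (SE 0.064, adjusted p = 0.0012). Bbc3 was lower, at -0.50 (SE 0.089, adjusted p = 0.0013), with no overlap of the groups. Bax was also lower, at -0.24 (SE 0.081, adjusted p = 0.037), with overlapping groups. This last call was lost with the mouse as a block (-0.20, adjusted p = 0.10), with upper-quartile normalisation (-0.19, adjusted p = 0.13), and in 7 of the 8 fits that left out 1 library (log2 differences -0.25 to -0.19 in these 7), all but that without control striatum of mouse 63. Ptprv, at 1.32 ± 0.50 CPM in control cortex and 1.86 ± 0.48 CPM in control striatum, gave a log2 difference of 0.48 (95% interval -0.12 to 1.07, adjusted p = 0.19). Cdkn1a, Ccng1 and Mdm2 did not pass either, at 0.15, -0.07 and 0.08; Cdkn1a did without the cortex of control mouse 58 (0.23, adjusted p = 0.038).

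Ptprv and the gene next to it were both higher. Ptpn7 (chr1:135132700-135145317, plus strand), which encodes a tyrosine phosphatase of blood cells, starts 105 bases from the start of Ptprv and runs the other way. The stretch from 145 bases inside Ptprv to the start of Ptpn7 is shown because both genes are transcribed outward from it (chr1:135132450-135132699, GRCm38, plus strand, from the RefSeq promoter of Ptpn7), with the 105 bases between the starts in capitals.
Ptprv-Ptpn7: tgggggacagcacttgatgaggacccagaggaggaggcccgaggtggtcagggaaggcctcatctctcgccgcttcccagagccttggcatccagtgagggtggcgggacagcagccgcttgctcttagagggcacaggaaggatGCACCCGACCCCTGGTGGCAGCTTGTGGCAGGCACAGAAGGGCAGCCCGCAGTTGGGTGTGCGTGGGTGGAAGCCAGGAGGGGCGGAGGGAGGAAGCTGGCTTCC
The Ptpn7 promoter held no match to the p53 element. Ptpn7 was counted at 0.329, 0.355, 0.208 and 0.103 CPM in the cortex of control mice 55, 58, 63 and 64, against 0.543, 0.335, 0.653 and 0.5004 CPM in that of Trrap-FBΔ mice 57, 59, 60 and 61, where mouse 59 fell among the controls. In striatum, control mice 58, 63, 64 and 65 had 0.0945, 0.430, 0.263 and 0.295 CPM, while the same Trrap-FBΔ mice had 1.04, 0.631, 0.663 and 0.490 CPM, with no overlap. The log2 fold change was 1.04 (SE 0.35, adjusted p = 0.037) in cortex and 1.33 (SE 0.36, adjusted p = 0.019) in striatum, from 3 to 48 reads per library. With so few reads the calls were not firm. In cortex the call was lost in DESeq2 (adjusted p = 0.062) and without control mouse 63 (log2 fold change 0.97) or 64 (0.77) or Trrap-FBΔ mouse 57 (1.02), 60 (0.91) or 61 (1.06), and in striatum without Trrap-FBΔ mouse 57 (1.08, adjusted p = 0.056) and with sex as a covariate (adjusted p = 0.065).

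The genes further out did not share the rise. Arl8a, a small GTPase of lysosome transport that starts 14229 bases beyond Ptprv, fell in both tissues, with log2 fold changes of -0.44 (adjusted p = 0.00022) and -0.28 (adjusted p = 0.0050). The astrocyte receptor gene Gpr37l1 gave -0.14 (adjusted p = 0.13) in cortex and -0.18 (adjusted p = 0.037) in striatum, a call lost in 5 of 8 fits that left out 1 library (mouse 57, 59, 60, 58 or 65, -0.18 to -0.14). In cortex it passed without mouse 57 (-0.20, adjusted p = 0.015). Lgr6, an R-spondin receptor on the other side of Ptprv, gave -0.17 and -0.19, and Gm4204 and Gm15445 did not pass in either tissue.

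**Figure D3:**
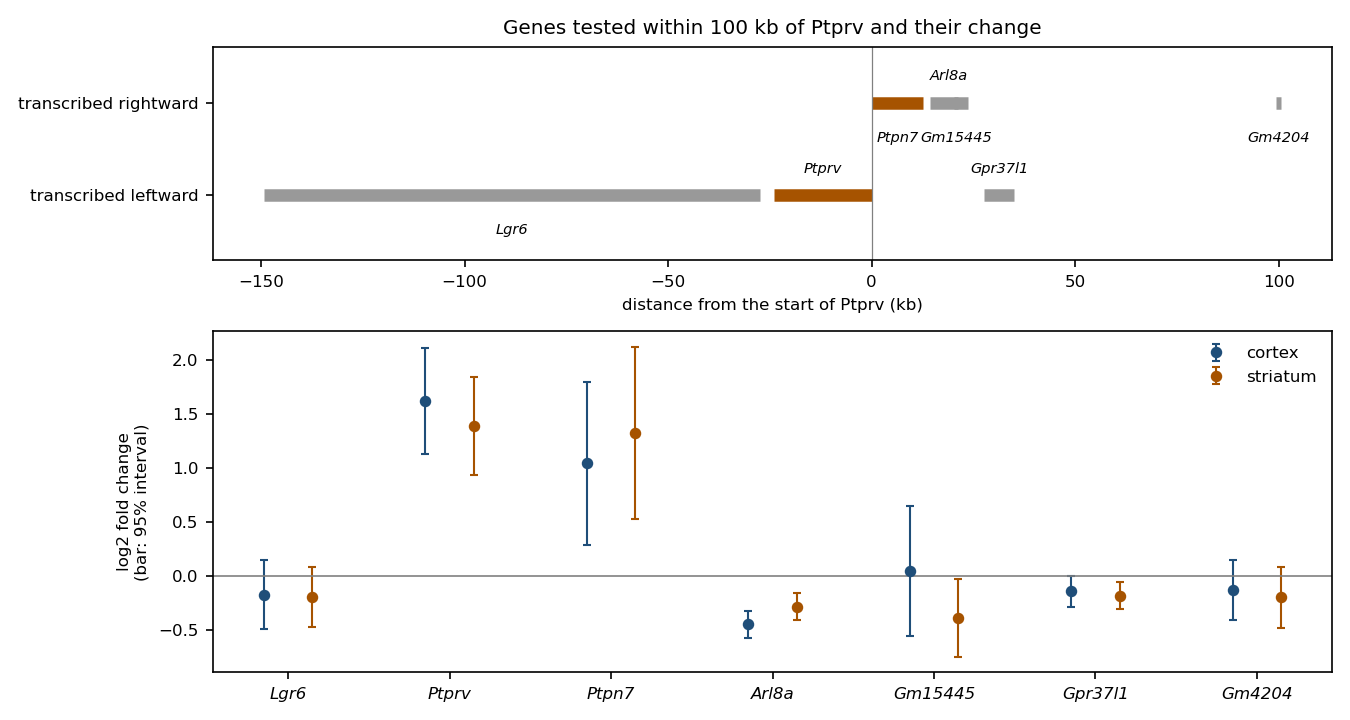
Top, the genes tested within 100 kb of Ptprv, drawn by strand against the distance from the start of Ptprv in kb. Bottom, their log2 fold change, Trrap-FBΔ over control, with 95% intervals in each tissue: Ptprv, drawn as a description, and Ptpn7 start 105 bases apart and lie at 1.04 to 1.62, while the intervals of Arl8a lie wholly below 0 in both tissues.

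The 5 genes whose log2 CPM followed that of Ptprv most closely over the 16 libraries, among 14990 genes with a mean count of at least 50, were Itm2c (Pearson r = 0.97), Hemk1 (0.96), Slc16a3 (0.96), Zzz3 (0.95) and Dguok (0.95). None is one of the other 9 p53 targets, of which Eda2r had too few reads to be compared, and nothing is read from this. These values describe libraries that share mice, groups and the genotype effect. After the group means were removed they were 0.81, 0.68, 0.69, 0.76 and 0.58. The 5 genes were picked for following Ptprv in these same libraries, so these values and their rises are descriptions only. They are not set against the values of the genes chosen by name. Mdm2 gave 0.80 with Ptprv over all libraries and 0.089 after the group means were removed, Sesn2 0.69 and 0.050, and Cdkn1a -0.74 and 0.15. The values after centring were furthest from 0 for Ccng1 (-0.55), Trp53inp1 (-0.44) and Eda2r (-0.41), and lay between -0.19 and 0.20 for Bax, Bbc3 and Phlda3. Itm2c, an inhibitor of amyloid precursor processing, rose by 0.64 in cortex and 0.51 in striatum on the log2 scale. Slc16a3, the lactate exporter Mct4, rose by 1.02 and 0.87, and Dguok, the mitochondrial deoxyguanosine kinase, by 0.52 and 0.36.

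A wider list of 71 known p53 targets gave both directions in both tissues. In cortex 12 of the 67 that were tested rose and 15 fell, with a median log2 fold change of -0.0024. In striatum 10 of 70 rose and 20 fell, with a median of -0.02. Over both tissues 7 of 67 rose in each and 13 fell in each, and no gene was called in opposite directions. The shares of all genes called in both tissues were not computed, so nothing is read from these counts. The changed share, 40.3% in cortex and 42.9% in striatum, compares with 33.3% and 30.2% over all genes.

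**Figure D4:**
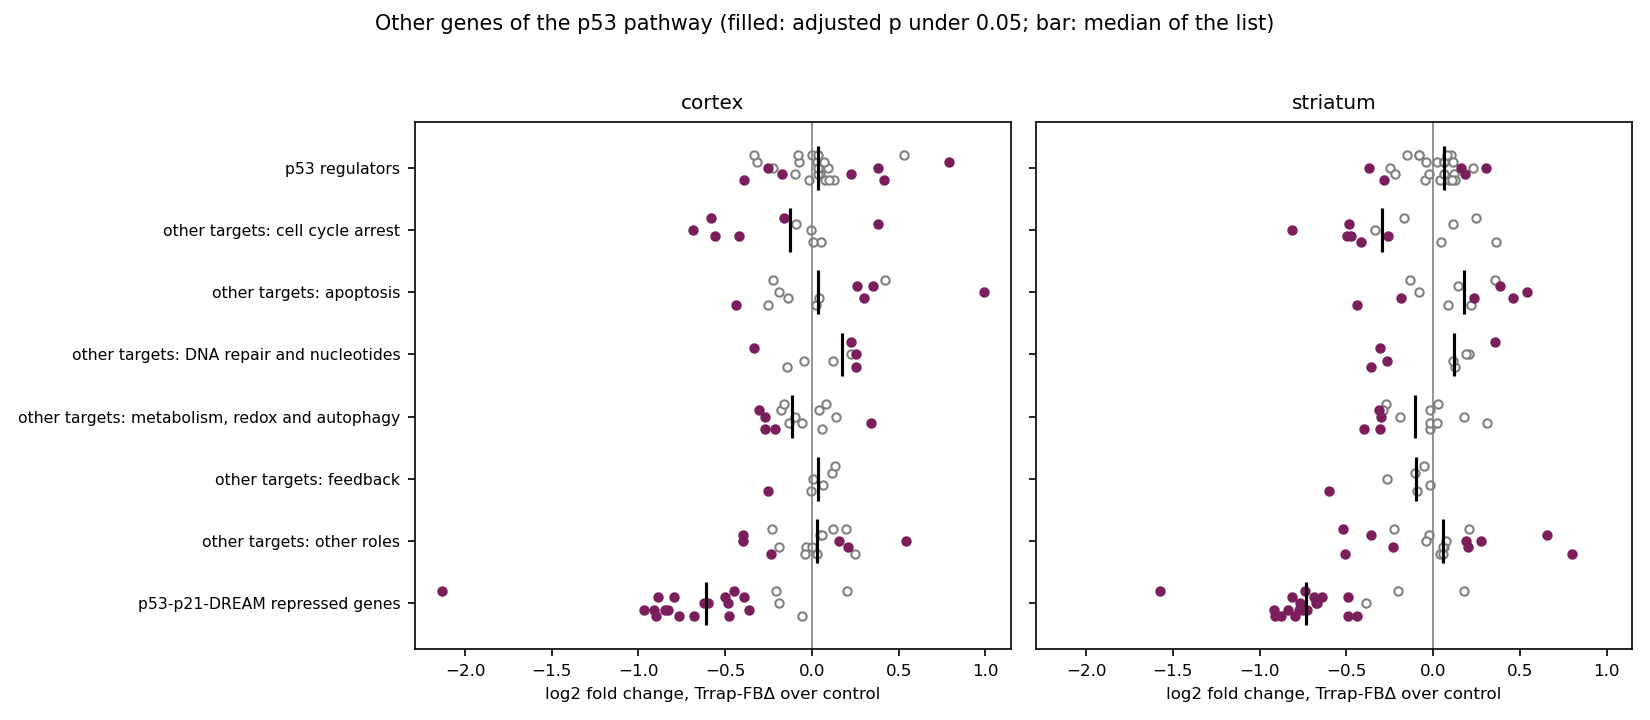
Log2 fold change, Trrap-FBΔ over control, of each gene (points) in 8 lists of the p53 pathway, in cortex and striatum, with filled points for adjusted p under 0.05 and bars for medians. The lists of targets lie on both sides of 0, whereas the genes that p53 represses through p21 and DREAM are centred at -0.61 and -0.73.

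Among targets for cell cycle arrest, 1 of 10 rose and 5 fell in cortex, and 6 of 12 fell in striatum. Of all genes tested, 15.7% rose and 17.6% fell in cortex, and 14.4% rose and 15.8% fell in striatum. These shares also stand beside the counts of the other target groups below, which hold few genes, and nothing is read from the counts. The kinase gene Plk3 fell by 0.56 and 0.47 on the log2 scale in cortex and striatum (adjusted p = 7.2e-05 and 0.011), and Ckap2, a spindle protein, by 0.42 and 0.50. E2f7, an E2F-family repressor, fell by 0.69 in cortex (adjusted p = 0.00076) and gave -0.33 in striatum (adjusted p = 0.082). Psrc1, a microtubule regulator, gave -0.0079 in cortex, where its sign turned with the normalisation and the filter, and fell by 0.81 in striatum (adjusted p = 0.0036). The difference between the tissues did not pass for Psrc1 (adjusted p = 0.079).

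Among targets for apoptosis, 4 of 12 rose in each tissue, and 1 fell in cortex and 2 in striatum. Pmaip1, which encodes the BH3-only protein Noxa, was at 2.19, 2.11, 2.67 and 1.86 CPM in control cortex and 4.84, 5.30, 4.23 and 3.25 CPM in Trrap-FBΔ cortex. The striatal values were 1.39, 1.72, 1.499 and 1.61 CPM in controls and 2.22, 2.22, 2.59 and 2.06 CPM in Trrap-FBΔ. It thus rose without overlap in both tissues, by 0.99 (SE 0.17, adjusted p = 0.0011) and 0.54 (SE 0.12, adjusted p = 0.0087) on the log2 scale, where Bbc3, of the same protein class, did not. Pidd1, a scaffold of caspase-2, rose by 0.30 and 0.46 and Siva1, a death domain adaptor, by 0.35 and 0.38. Aen, an exonuclease of apoptotic cells, fell by 0.44 in both tissues (adjusted p = 0.0013 and 0.00063).

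For DNA repair and nucleotides, 3 of 8 rose and 1 fell in cortex, and 1 rose and 3 fell in striatum. The translesion polymerase genes Polk and Polh moved apart: Polk rose by 0.23 and 0.36, and Polh fell by 0.33 and 0.30. The ribonucleotide reductase subunit Rrm2b fell by 0.36 in striatum (adjusted p = 0.0024) and gave -0.14 in cortex (adjusted p = 0.10). Xpc, which recognises damage in nucleotide excision repair, rose by 0.25 in cortex (adjusted p = 0.0050) and gave 0.19 in striatum (adjusted p = 0.059, or 0.047 in DESeq2).

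Of the targets in metabolism, redox and autophagy, 1 of 14 rose and 4 fell in cortex, and 4 fell in striatum. Tigar, a fructose bisphosphatase, fell by 0.21 and 0.40, the autophagy kinase gene Ulk2 by 0.30 and 0.31, and the glutathione peroxidase gene Gpx1 by 0.27 and 0.31. Trp53i13 rose by 0.34 in cortex (adjusted p = 0.046). Among 6 feedback genes, 1 fell in each tissue, Ccng2 (cyclin G2), by 0.25 and 0.60. Of targets with other roles, 3 of 17 rose and 3 fell in cortex, and 5 of 18 rose and 4 fell in striatum. The peptide transporter gene Tap1 rose by 0.54 and 0.66. The growth factor gene Tgfa fell by 0.40 and 0.52 and the long noncoding RNA Pvt1 by 0.40 and 0.36.

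Several of these smaller calls were lost when 1 library was left out. In cortex this held for Polh without mouse 60 (adjusted p = 0.052), for Polk and Tap1 in 3 of 8 such fits, Tigar in 4, Siva1, Gpx1 and Tgfa in 5, and Pidd1 and Trp53i13 in 6, with adjusted p up to 0.13. In striatum it held for Tgfa in 3 of 8 fits and for Gpx1 and Siva1 in 6, with adjusted p up to 0.10. With sex as a covariate, the calls for Siva1 and Tgfa were lost in both tissues and those for Polk and Trp53i13 in cortex. In cortex, DESeq2 lost Pidd1 (adjusted p = 0.064) and Trp53i13 (0.084), and the fit without a filter lost both and Polk. Upper-quartile normalisation lost Tgfa in cortex (0.052) and Gpx1 in striatum (0.054), and added Xpc in striatum (0.035). A minimum of 10 counts in every library also added Xpc there (0.048). One fit of all 16 libraries lost Tgfa (0.078) and Gpx1 (0.0504) in cortex. In striatum it added E2f7 (0.030), Trp53i13 (0.036) and Xpc (0.020).

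The gene for p53 itself, Trp53, fell. It was counted at 17.2, 19.7, 16.5 and 16.7 CPM in the cortex of control mice 55, 58, 63 and 64, against 12.4, 13.8, 13.3 and 13.8 CPM in that of Trrap-FBΔ mice 57, 59, 60 and 61. The striatal values were 15.9, 14.8, 16.7 and 15.1 CPM in controls and 13.4, 12.5, 12.0 and 13.3 CPM in Trrap-FBΔ. The groups did not overlap, and the log2 fold change was -0.39 (SE 0.073, adjusted p = 0.0019) in cortex and -0.28 (SE 0.066, adjusted p = 0.0098) in striatum. These are transcript levels of whole tissue, and the part of cell numbers in this fall was not tested. The factor p53 is governed largely through its protein, which was not measured in these libraries. Mdm4, the partner of Mdm2 in holding p53 low, rose by 0.16 in striatum (adjusted p = 0.017, or up to 0.058 without Trrap-FBΔ mouse 59 or 60, at 0.14 and 0.15) and gave 0.095 in cortex (adjusted p = 0.087). Of 26 regulators tested, 4 rose and 3 fell in cortex and 3 rose and 2 fell in striatum. These are 26.9% and 19.2% of the list, below the 33.3% and 30.2% of all genes. The kinase gene Dyrk2 fell by 0.25 and 0.37. Rpl5, a ribosomal protein that can bind Mdm2, rose by 0.38 and 0.31 (in striatum, adjusted p = 0.022, or 0.057 without mouse 60, at 0.24). Trp63, the p53 relative, rose by 0.79 in cortex from 26 to 72 reads per library (adjusted p = 0.0055) and gave 0.11 in striatum (adjusted p = 0.61), a difference between tissues that did not pass (adjusted p = 0.21).

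Most of the cell division genes that p53 represses through p21 and DREAM fell. In cortex 18 of 22 did (median log2 fold change -0.61), where 17.6% of all genes fell, and in striatum 19 of 22 (median -0.73), where 15.8% did. Log2 fold changes reached up to 0.20 in cortex and 0.18 in striatum among the others, and their fall was known from earlier results of these libraries when the list was written. Their summed level was 150 to 169 CPM in control and 96.6 to 102 CPM in Trrap-FBΔ cortex, and 174 to 210 and 108 to 122 CPM in striatum. The proliferation marker Mki67 fell by 0.91 and 0.84, the topoisomerase gene Top2a by 0.90 and 0.88, and Ccnb1, cyclin B1, by 0.97 and 0.92. Pttg1, or securin, fell most, by 2.13 in cortex and 1.57 in striatum, where control mouse 65 was at 3.20 CPM and the other 3 controls at 8.65 to 10.4 CPM. The Trrap-FBΔ libraries were at 1.73 to 2.40 CPM in cortex and 2.35 to 3.04 CPM in striatum. Markers of oligodendrocyte precursors, which divide at this age, fell in the same libraries as given above, and their part in this fall was not tested.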

How the data were processed

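Strand-specific libraries of polyadenylated RNA were read single-end by the authors, demultiplexed with bcl2fastq 1.8.4 and aligned to GRCm38 with STAR 2.5.4b, and featureCounts 1.5.0 gave the reads per Ensembl gene. The deposited values are these raw counts, with no normalization or filter. Group, tissue, sex and mouse came from the labels. Symbols, coordinates and exon lengths were taken from GENCODE M21 on the same build, which matched 53706 of 53801 identifiers, and promoter sequences from RefSeq.

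In R 4.3.3, edgeR 4.0.16 (filterByExpr, TMM, quasi-likelihood test, Benjamini-Hochberg adjustment, threshold 0.05) was fitted to the 8 libraries of each tissue, to the 8 control libraries for tissue, and to all 16 for the interaction. Log2 CPM for correlations used a pseudocount of 0.5, and intervals are 95%. Alternatives were DESeq2 1.42.0, other scalings and filters, sex, a mouse block, one fit of all libraries, and each library left out. The edgeR tests were tried on simulated data with known changes. Libraries held 28743866 to 48761429 reads, so counting error weighs mainly on Ptpn7, Eda2r and Ptprv.

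The genes, lists and tests were chosen with earlier results of these data known. Named are the 10 genes, Trrap, Trp53 and Mdm4, the genes tested within 100 kb of Ptprv, the 5 closest in profile, and up to 4 per list with the largest mean change of those past the threshold. A gene that this rule names is not reported here. No list was tested as a set. Rfwd2 was not matched, being an older name of Cop1, which was.

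The mouse pairs the tissues: deviations from group means over 19438 genes correlated at 0.101 to 0.449 in the 7 same-mouse pairs and at -0.347 to 0.172 in 25 other pairs. No 2 libraries of a group were duplicates (chi-square over degrees of freedom 8.26 to 44.6 in 24 pairs).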

Additional observations from a re-analysis of the deposited data

How the results depend on the processing

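Of 2229 values recomputed under the alternatives, 2055 were classed as the same. For a tested gene this meant the same direction and side of the threshold. For a count of called genes it meant a change within a set ratio, and for the untested effects of Ptprv a shift smaller than its spread within groups. With all 16 libraries in one fit, 5 of the other 9 genes were called in cortex in place of 3, Mdm2 and Eda2r being added. The number of genes over the whole table whose effect differed between tissues was least stable: 85 in edgeR, 429 in DESeq2, 195 with no filter on low counts, 219 with the mouse as a replicate block, and 2 to 151 with 1 mouse left out. The cause was not tested, and none of the 9 genes was among these calls. The replicate block changed 1 call of the 10 genes, that of Bax between control tissues (-0.20).

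Differences near 0 changed sign. Upper-quartile normalization gave 0.0018 for Bax and 0.011 for Psrc1 in cortex and 0.018 for Mdm2 in the interaction, and a minimum of 10 counts in every library gave 0.00023 for Psrc1. With 1 library left out, log2 fold changes in cortex ran from -0.051 to 0.045 for Bax, -0.025 to 0.078 for Trp53inp1, -0.10 to 0.089 for Psrc1, -0.25 to 0.028 for Lgr6 and -0.12 to 0.34 for Gm15445. The interaction ran from -0.027 to 0.0063 for Mdm2 and -0.072 to 0.16 for Phlda3, that of Ptprv, not tested, from -0.61 to 0.026, and the tissue difference of Ccng1 from -0.13 to 0.0056. Sex was unevenly split between the groups. With sex as a covariate Cdkn1a gave -0.85 and -0.67 and Sesn2 0.37 and 0.58, and the call of Bbc3 in cortex held narrowly (adjusted p = 0.049). Depth limits Ptpn7 and Eda2r most.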
